A study of Mus musculus with 6 samples.

Results

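The 8 genes described here encode the hypoxia-inducible factor (HIF) subunits Hif1a, Epas1 and Arnt and the proteins that read oxygen for them, namely the prolyl hydroxylases Egln1, Egln2 and Egln3, the ubiquitin ligase subunit Vhl and the asparaginyl hydroxylase Hif1an. They were taken by name from the deposited table and are 8 of its 38924 gene rows. All 8 were among the 12502 genes with enough reads to test. RNA came from naive CD4+ T cells of C57 BL/6 mouse spleens, cultured for 72 h in RPMI medium with serum. All cultures received anti-CD3 and anti-CD28, which stimulate the T cell receptor and its co-receptor, and IL-6, IL-23 and TGFb1, which favour Th17 differentiation. The 3 control cultures received the solvent DMSO, and the 3 treated cultures received CX-4945 (silmitasertib), an ATP-competitive inhibitor of protein kinase CK2 that also inhibits CLK kinases. The labels state a dose of 2 mM, and nothing else in the sources allows that unit to be verified. The design text calls the replicates biological without saying that each came from its own mouse, so every p-value here reflects variation among these 6 cultures and no wider population. No oxygen tension is given in the sources used here. The cells were taken with a commercial isolation kit, and no purity after culture is given in the sources used here.

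HIF is a pair of proteins, an oxygen-labile alpha subunit and the stable beta subunit Arnt. When oxygen is plentiful, prolyl hydroxylases modify the alpha subunit, Vhl binds the modified form, and the proteasome destroys it, while Hif1an hydroxylates the alpha subunit at another site and hinders its coactivators. When oxygen is scarce, or when signalling raises synthesis of the alpha subunit, the pair binds DNA and turns on genes of glycolysis, blood supply and survival, including genes for its own hydroxylases. In mouse T cells Hif1a is known to rise with activation and to favour the Th17 programme. These controls act largely on protein, whereas the libraries measure RNA.

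The table numbers its libraries, and those numbers are used here. DMSO cultures gave libraries 1, 3 and 5, and CX-4945 cultures gave libraries 2, 4 and 6. Each held 22178614 to 26148189 exon reads that map to a single gene. The CD4 T cell marker genes were abundant in every library, with a summed level of 2990 to 3144 CPM (unique exon reads scaled to a common library size) in the controls and 1897 to 1934 CPM in the treated cultures, and 5 of 6 were lower after CX-4945. Summed levels of the other lists were 190 to 260 against 59.6 to 82.6 CPM for dendritic cells (2 of 5 tested lower, H2-Ab1 giving most of the sum), 27.9 to 38.7 against 18.4 to 27.3 CPM for CD8 T and NK cells (2 of 3 lower) and 9.73 to 14.2 against 9.13 to 9.96 CPM for B cells (0 of 4 passed). Macrophage genes summed to 12.8 to 20.0 CPM with DMSO and 17.5 to 34.3 CPM with CX-4945 (1 of 4 higher), and erythroid genes to 11.1 to 15.8 and 7.69 to 8.71 CPM (1 higher and 2 lower of 3). No marker was at 0 in all 6 libraries, although Ncr1 of NK cells and Ms4a1 of B cells had at most 3 reads in each. The part of these shifts in the results below was not tested. In bulk RNA, fewer cells of a type and less RNA per cell cannot be told apart.

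Of the 8 genes, 4 fell with CX-4945 and 0 rose. Hif1a, Vhl, Egln1 and Egln3 fell by 1.71-fold to 2.09-fold, while Epas1, Arnt, Egln2 and Hif1an did not pass the test. The test was the quasi-likelihood F test of edgeR, two-sided, with p-values adjusted over all 12502 genes and a threshold of 0.05. By the same rule 61.9% of all genes tested were called in either direction, 31.3% were called lower and 30.6% higher, and nothing about the members is read from the count of 4 of 8. Of all genes tested, 12.7% passed with a fall at least as large as that of Egln1. Against a required fold of 1.5 (edgeR glmTreat, chosen after seeing the data) the same 4 members passed, against 14.9% of all genes in either direction and 9.61% lower.

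The promoters of the 4 members that fell are shown here, with or without a match to the HIF motif. HIF binds the core sequences ACGTG and GCGTG, and the windows were searched for both on both strands. RefSeq (build GRCm38.p6) gave a promoter for 7 of the 8 genes, with 2 windows for Egln2 and none for Epas1. The 250 bases before the RefSeq start held 3 matches for Hif1a, 2 for Egln1, 1 for Egln3 and 0 for Vhl. Of the members that did not pass, Egln2 had 4 and 1 in its windows, Arnt had 1 and Hif1an had 0. Either motif occurred in 38.6% of all 32851 windows and in 56.3% of the 11797 windows of tested genes. A match describes letters only. The sequences below read 5′ to 3′ on the gene's own strand, capitals mark the motif matches on either strand, and bases past the gene start of GENCODE M21 were left off for Egln1 and Vhl. The Hif1a stretch (chr12:73907617-73907866, plus strand) lies inside the gene span of GENCODE M21, which begins upstream at 73901375, and was kept whole. It has a CACGTG in which matches on opposite strands overlap. The Egln1 stretch (chr8:124949325-124949504, minus strand) shows its GCGTG, and its other match, an ACGTG at 68 bases before the RefSeq start, lies in the bases left off. The Egln3 stretch (chr12:54203875-54204124, minus strand) has an ACGTG at 229 bases before the start. The Vhl stretch (chr6:113623744-113623958, plus strand) has no match and so no capitals.
Hif1a promoter: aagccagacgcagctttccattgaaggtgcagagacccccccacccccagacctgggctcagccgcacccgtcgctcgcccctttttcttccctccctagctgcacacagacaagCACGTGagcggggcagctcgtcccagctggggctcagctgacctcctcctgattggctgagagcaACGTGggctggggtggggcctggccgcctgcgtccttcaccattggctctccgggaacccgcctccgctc
Egln1 promoter: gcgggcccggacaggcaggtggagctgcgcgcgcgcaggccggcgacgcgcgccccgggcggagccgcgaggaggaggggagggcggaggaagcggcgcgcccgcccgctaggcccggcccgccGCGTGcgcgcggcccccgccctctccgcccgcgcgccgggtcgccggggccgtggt
Egln3 promoter: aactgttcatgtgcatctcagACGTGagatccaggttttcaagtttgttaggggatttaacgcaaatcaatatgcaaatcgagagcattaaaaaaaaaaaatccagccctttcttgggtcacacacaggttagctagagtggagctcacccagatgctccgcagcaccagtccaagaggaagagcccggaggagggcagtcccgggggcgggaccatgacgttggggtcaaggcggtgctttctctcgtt
Vhl promoter: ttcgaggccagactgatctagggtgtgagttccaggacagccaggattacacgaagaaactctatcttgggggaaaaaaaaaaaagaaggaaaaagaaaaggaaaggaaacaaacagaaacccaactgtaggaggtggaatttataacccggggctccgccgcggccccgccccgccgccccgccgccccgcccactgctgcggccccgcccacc

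Levels of different genes were compared per length, as CPM per kilobase of exon from unique reads. In the controls the most abundant member was Egln3 at 458 ± 36.5 CPM per kb (SD, n = 3), followed by Egln1 at 160 ± 9.33 and Hif1a at 65.0 ± 3.97 CPM per kb. These stood at ranks 66, 276 and 933 among the tested genes, whose median was 8.10 CPM per kb. Vhl at 32.2 ± 5.26 and Egln2 at 31.3 ± 1.2 CPM per kb came next, and the ranges of this pair overlapped. Hif1an at 14.1 ± 0.47 and Arnt at 12.7 ± 0.86 CPM per kb followed, also with overlapping ranges, and Epas1 was last at 0.57 ± 0.21 CPM per kb. No other neighbours in the order had overlapping ranges in the controls. In the treated cultures the order was the same except that Egln2 (28.8 ± 0.62 CPM per kb) stood above Vhl (15.4 ± 1.11 CPM per kb), 1.87 times its level, and no neighbours overlapped.

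The place of Hif1a in that order depends on which values are used. The authors' deposited table gives mean RPKM values (reads per exon length and library size), and there Hif1a stood second, at 156 with DMSO and 94.1 with CX-4945, above Egln1 at 105 and 65.8. For Hif1a this RPKM was 2.40 times its unique CPM per kb with DMSO and 2.60 times with CX-4945, against 0.652 to 0.656 and 0.701 to 0.703 times for the other 7 genes. By the deposited coordinates a gene annotated as antisense to Hif1a, Gm15283, runs across its 3′ part (shared span chr12:73926481-73947530 in mm10). That span of Gm15283 holds 5351 of the 5896 exon bases of Hif1a. In GENCODE M21 Gm15283 is longer (73843039 to 73949814) and spans all of Hif1a. There 330 exon bases of Hif1a lie inside exons of Gm15283. Gm15283 itself was counted in 70 unique exon reads over the 6 libraries. The strand setting is not stated in the sources, so reads of a gene and its antisense partner cannot be told apart. Levels of Hif1a per length are therefore uncertain, and its CPM, fold change and ratios below rest on unique exon reads alone. Between groups the authors' RPKM means of Hif1a had a ratio of 1.66 (DMSO over CX-4945), against 1.80 for unique CPM per kb. The RPKM ratio was also the smaller in every other member, as in Egln3 (1.64 against 1.76) and Hif1an (1.00 against 1.07).

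**Figure D1:**
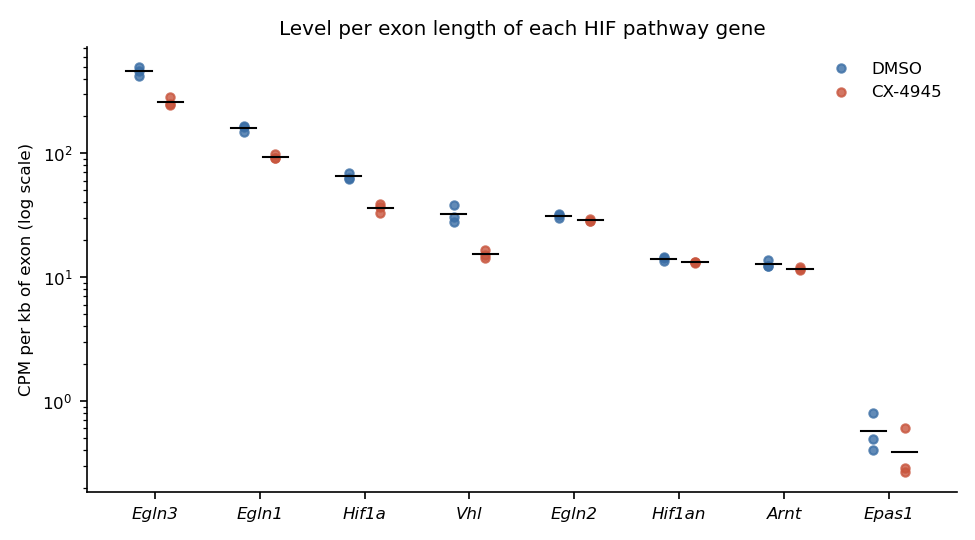
Level of the 8 genes as CPM per kb of exon on a log axis, with a point per library and a line at the mean of each group of 3. Egln3, Egln1 and Hif1a lie highest with DMSO, at means of 458, 160 and 65.0 CPM per kb, and Epas1 lies lowest at 0.57.

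Hif1a encodes the alpha subunit found in most cell types (chr12:73901375-73947530 in mm10, plus strand, protein coding). Its level in DMSO libraries 1, 3 and 5 was 410, 373 and 366 CPM, and in CX-4945 libraries 2, 4 and 6 it was 217, 192 and 230 CPM (unique exon reads, scaled by TMM). Every treated library lay below every control library. The means were 383 ± 23.4 and 213 ± 18.9 CPM (SD, n = 3 each), and the fitted log2 fold change was -0.85 ± 0.08 (SE), a 1.80-fold fall (edgeR adjusted p = 6.2e-05).

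Epas1 encodes HIF-2 alpha, the alpha subunit best known from endothelium, kidney and lung (chr17:86753907-86833410, plus strand). It had only 63, 51 and 101 reads in the control libraries, and 38, 32 and 86 in the treated ones. In CPM these are 2.63, 2.13 and 4.28 against 1.53, 1.41 and 3.22. The groups overlapped, and library 6 lay above DMSO libraries 1 and 3. The log2 fold change was -0.54 ± 0.37, with a 95% interval of -1.38 to 0.31 (edgeR adjusted p = 0.234). The value depended on single libraries. Without CX-4945 library 6 it was -1.03 (edgeR adjusted p = 0.0282), without DMSO library 5 it was -0.20 (adjusted p = 0.664), and without CX-4945 library 2 or 4 it was -0.36 (adjusted p = 0.492) or -0.33 (adjusted p = 0.505). The endothelial marker list summed to 89.9 to 110 CPM with DMSO and to 28.8 to 41.3 CPM with CX-4945, with 1 of 2 tested genes lower. Nearly all of that sum was Pecam1, which T cells also express. Cdh5 and Tek had at most 3 reads in any library, Vwf had at most 4, and Kdr had 9 to 14. The part of endothelial cells in the Epas1 values was not tested.

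Arnt encodes the beta subunit, the obligate partner of both alpha subunits and of the aryl hydrocarbon receptor (chr3:95434388-95497240, plus strand). Control libraries gave 97.9, 98.1 and 110 CPM, and treated libraries gave 90.5, 92.2 and 95.8 CPM. The treated libraries lay below the controls by a narrow margin. The log2 fold change was -0.14 ± 0.06, with an interval of -0.28 to 0.01 (edgeR adjusted p = 0.0848).

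**Figure D2:**
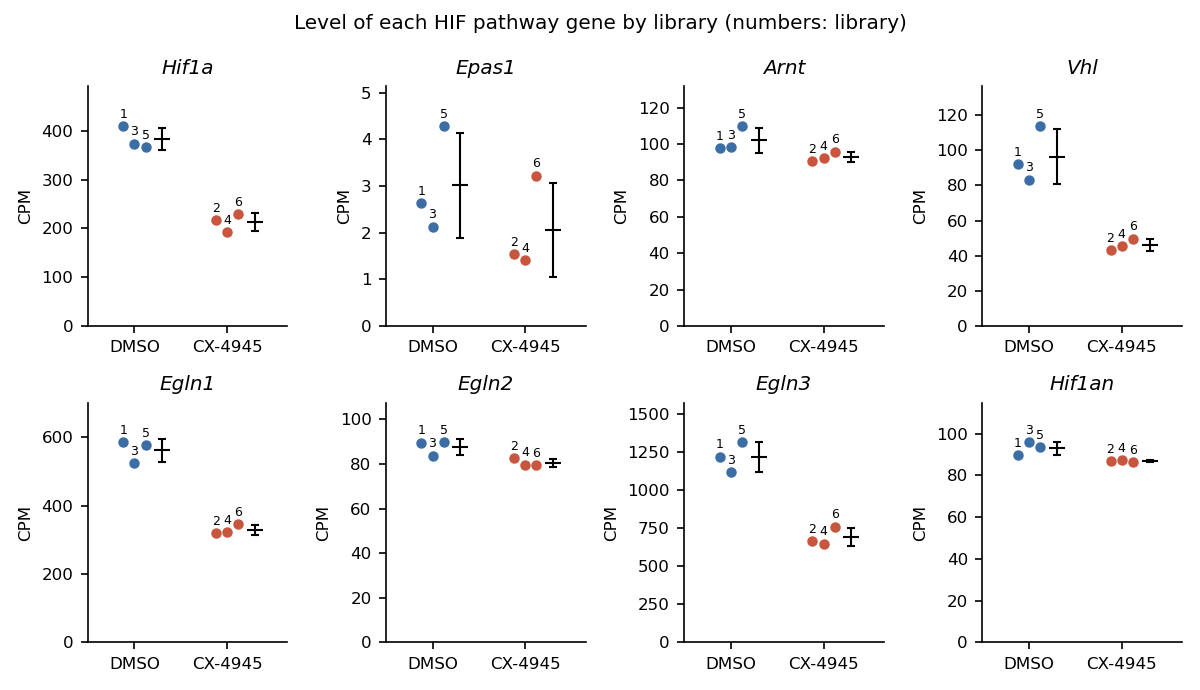
CPM of each of the 8 genes in the 6 libraries, with library numbers and the mean and SD of each group of 3 in black. Hif1a, Vhl, Egln1 and Egln3 show wide gaps between the groups, while the Epas1 values overlap.

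Egln1 encodes PHD2, generally the main prolyl hydroxylase that sets HIF-1 alpha levels at normal oxygen (chr8:124908596-124949254, minus strand). It measured 585, 525 and 577 CPM with DMSO and 321, 322 and 346 CPM with CX-4945. No values of the groups met. The means were 562 ± 32.8 and 330 ± 14.0 CPM (SD, n = 3 each), a log2 fold change of -0.77 ± 0.06 and a 1.71-fold fall (edgeR adjusted p = 3.9e-05).

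Egln3 encodes PHD3, a strongly HIF-inducible prolyl hydroxylase (chr12:54178981-54203860, minus strand). It reached 1221, 1119 and 1314 CPM in the controls, against 666, 649 and 761 CPM after treatment. The highest treated library stayed well below the lowest control. The means were 1218 ± 97.2 and 692 ± 60.6 CPM, a log2 fold change of -0.82 ± 0.08 and a 1.76-fold fall (edgeR adjusted p = 0.000103).

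Egln2 encodes PHD1, a prolyl hydroxylase that hypoxia does not generally induce (chr7:27158658-27166802, minus strand, overlapping Cyp2t4 on the other strand by 11 bases). It measured 89.5, 83.7 and 89.6 CPM with DMSO and 82.5, 79.6 and 79.4 CPM with CX-4945. Control library 3 lay close to treated library 2. The log2 fold change was -0.12 ± 0.05 with an interval of -0.24 to -0.002 and an unadjusted p of 0.0468, which the edgeR adjustment over all genes raised to 0.0713. Without DMSO library 3 it passed, at -0.15 with adjusted p = 0.0313.

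Summed over the 3 hydroxylases, the level per length was 649 ± 45.5 CPM per kb with DMSO and 383 ± 26.4 CPM per kb with CX-4945. Egln3 made up 70.5% of this RNA with DMSO and 67.9% with CX-4945, and Egln1 made up 24.7% and 24.5%. The Egln2 share went from 4.83% to 7.55%, with no overlap between groups. Egln2 itself went from 31.3 to 28.8 CPM per kb and did not pass, so its share restates the falls of Egln1 and Egln3.

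Vhl encodes the subunit of the ubiquitin ligase that recognises hydroxylated alpha subunits (chr6:113623959-113631633, plus strand). It measured 92.0, 83.2 and 114 CPM with DMSO and 43.1, 45.3 and 49.7 CPM with CX-4945. Control library 5 stood above the other controls, and all 3 treated libraries lay far below them. The means were 96.4 ± 15.8 and 46.0 ± 3.34 CPM, a log2 fold change of -1.06 ± 0.11 and a 2.09-fold fall (edgeR adjusted p = 0.000128). This was the deepest of the 4 falls. With any 1 library left out it stayed between -1.16 and -0.93.

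Hif1an encodes FIH, the asparaginyl hydroxylase (chr19:44562850-44576274, plus strand). The controls held 89.6, 95.7 and 93.5 CPM, and the treated cultures 86.9, 87.2 and 86.1 CPM. The treated values sat just under the lowest control. The log2 fold change was -0.10 ± 0.05, with an interval of -0.21 to 0.01 (edgeR adjusted p = 0.107). Its mean RPKM from the authors' deposited table was 9.21 in both groups, and the sources do not state which reads that value rests on. The groups of 7 members did not overlap in CPM after TMM, all 7 with CX-4945 lower. Of all tested genes, 69.7% had groups that did not overlap and 34.8% had every CX-4945 library below every DMSO library. Scaled by library size alone, Arnt, Egln2 and Hif1an had log2 fold changes of -0.07, -0.06 and -0.04, and their groups overlapped.

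**Figure D3:**
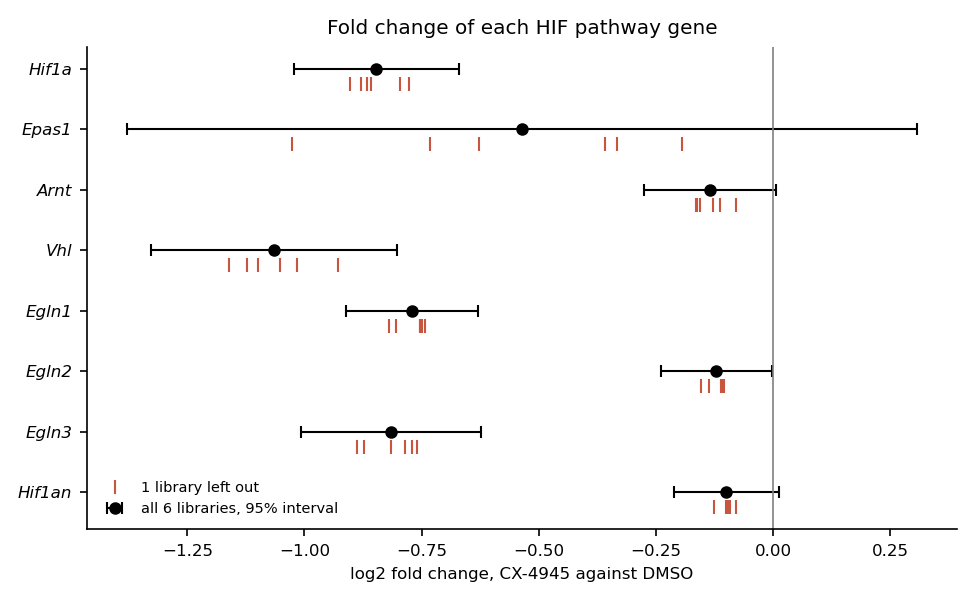
Log2 fold change of CX-4945 over DMSO for each gene (points, 95% intervals as bars) with the values when 1 library is left out (ticks). Hif1a, Vhl, Egln1 and Egln3 lie between -1.06 and -0.77, and the other 4 genes have intervals near or across 0.

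The authors' deposited table gave a corrected p under 0.05 for none of the 8 genes, and for 48 of its 14649 genes with such a value. Its smallest among the members was 0.0595 for Egln1. Its log2 differences were negative for all 8, from -1.05 for Vhl to -0.10 for Hif1an. That comparison was made on other values than the counts tested here.

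Ratios between members within a library do not depend on how libraries are scaled. They were compared for 7 pairs with exact two-sided permutation tests, in which 3 against 3 libraries cannot go below p = 0.1. The log2 ratio of Egln3 to Egln1 was 1.11 ± 0.07 with DMSO and 1.07 ± 0.07 with CX-4945 (SD), an overlap (exact p = 0.4). Egln1 to Hif1a differed by 0.08 between groups (exact p = 0.4) and Vhl to Hif1a by -0.21 (exact p = 0.4), both with overlap. With 3 libraries a group these tests do not show that the ratios were equal.

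The ratios of Arnt and Hif1an to Hif1a and of Egln2 to Egln1 were higher in every treated library than in every control library. Each sets a gene that did not pass over one that fell, so these ratios restate the fold changes given above. Arnt to Hif1a went from -1.91 ± 0.17 to -1.19 ± 0.12 (log2), a ratio 1.64 times higher. Hif1an to Hif1a went from -2.04 ± 0.13 to -1.29 ± 0.14, 1.68 times higher, and Egln2 to Egln1 from -2.68 ± 0.03 to -2.03 ± 0.08, 1.57 times higher. Each of these 3 reached the smallest exact p of 0.1, or 0.233 adjusted over the 7 ratios. Epas1 to Hif1a overlapped (difference 0.25, exact p = 0.5).

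**Figure D4:**
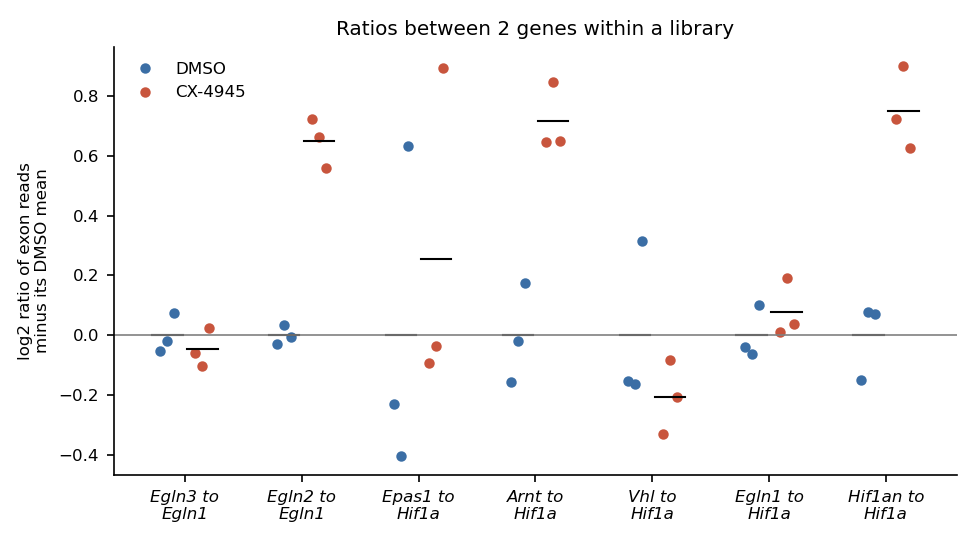
Log2 ratio of unique exon reads for 7 pairs of genes, minus the mean of its DMSO libraries, with a point per library and a line at the group mean. Arnt to Hif1a, Hif1an to Hif1a and Egln2 to Egln1 separate the groups, and the other 4 ratios overlap.

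Other genes of the pathway were taken as 6 lists, drawn up from textbook knowledge with earlier results of these data known. Among 30 HIF targets outside glycolysis, 26 were lower, 2 were higher and 2 did not pass. In this list 93.3% were called, against 61.9% of all genes tested (31.3% lower and 30.6% higher). The median log2 fold change was -0.88 against -0.0029 over all genes tested. Bnip3, a mitophagy receptor, fell from 371 ± 21.6 to 146 ± 17.4 CPM (2.53-fold, edgeR adjusted p = 2.2e-05). P4ha2, a collagen prolyl hydroxylase subunit, fell 3.52-fold from 148 to 42.1 CPM. Cxcr4, a chemokine receptor, fell 2.28-fold from 251 to 110 CPM. Pfkfb3, which stands in this list although it makes an activator of glycolysis, fell 1.82-fold. The widest change in the list was in Adm, the vasodilator adrenomedullin, named after its values were seen, which fell 10.4-fold from 37.5 to 3.59 CPM. Higher were Tfrc, the transferrin receptor (1.28-fold), and Nt5e, an ectonucleotidase (1.34-fold). The Nt5e groups overlapped (edgeR adjusted p = 0.0398), while those of Tfrc did not (edgeR adjusted p = 0.00118). Neither the collagen lysyl hydroxylase Plod1 nor Narf passed. The count of 2 higher was 1 without DMSO library 1 or 5 or without CX-4945 library 2 or 4.

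The list of 48 other oxygen-dependent dioxygenases tested had 26 lower and 6 higher, with a median of -0.24. In all 66.7% passed in either direction, against 61.9% of all genes tested, which divide into 31.3% lower and 30.6% higher. The 6 higher became 2 without DMSO library 1 or without CX-4945 library 2. P4ha1, P4ha2, Plod1, Plod2 and Kdm3a stand in this list and in the HIF target list. The histone demethylases Kdm5b (2.22-fold, from 240 to 108 CPM) and Kdm4b (1.63-fold, from 146 to 89.7 CPM) fell. Tet1, which oxidises methylcytosine in DNA, fell 6.85-fold, with 13.9, 8.89 and 21.2 CPM with DMSO and 2.06, 1.81 and 2.51 CPM with CX-4945.

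**Figure D5:**
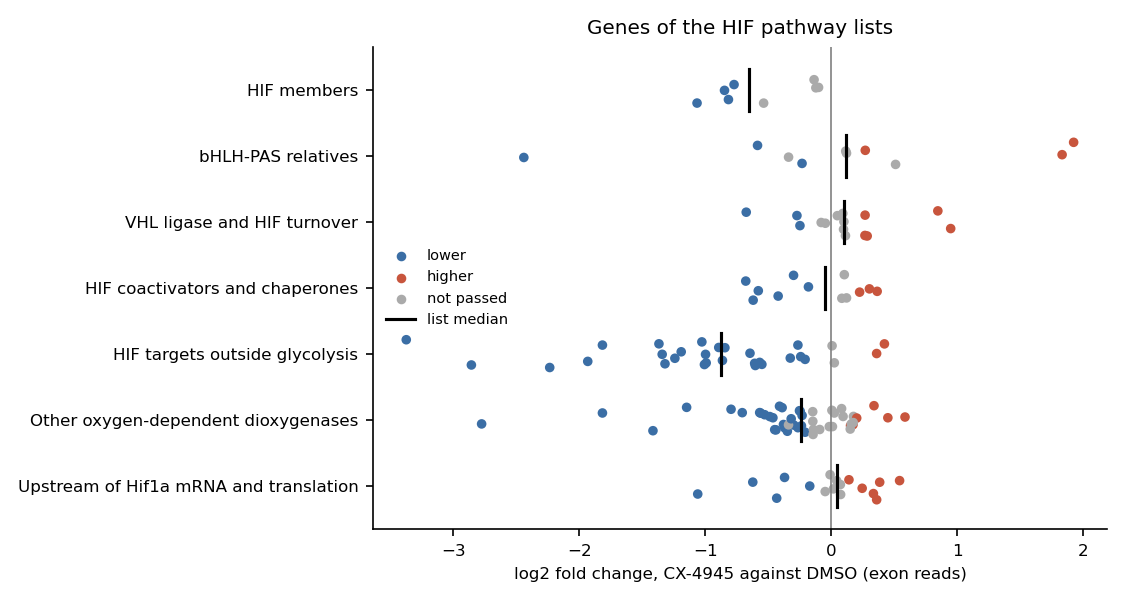
Log2 fold change of every tested gene in the 8-gene set and the 6 lists, with a bar at each list's median. The HIF targets outside glycolysis have the lowest median of the 6 lists, -0.88, and the members' median is -0.65.

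Relatives of the HIF subunits with the same bHLH-PAS fold gave 3 higher and 3 lower of 10 tested (median 0.12), or 60% called against 61.9% of all genes tested. Hif3a, an alpha subunit with forms that restrain HIF, had 31.9, 26.7 and 47.1 CPM with DMSO and 5.16, 4.82 and 9.32 CPM with CX-4945. It fell 5.43-fold (edgeR adjusted p = 0.000192), with no overlap. Arnt2, a relative of Arnt best known from neurons, rose 3.80-fold from a trace level of 0.321 to 1.25 CPM. Npas4, an activity-induced factor of neurons, rose 3.57-fold from 3.58 to 12.8 CPM. Ahr, the aryl hydrocarbon receptor, which also pairs with Arnt, fell from 309 to 206 CPM (log2 fold change -0.58).

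Genes of the Vhl ligase and of HIF turnover gave 5 higher and 3 lower of 15 (median 0.10), or 53.3% called against the same 61.9%. Siah1b, of a ligase family that degrades prolyl hydroxylases, rose 1.93-fold (a count made uncertain by its close paralog Siah1a), and Stub1, a chaperone-linked ligase, rose 1.80-fold. Usp20, a deubiquitinase known in human cells to act on HIF-1 alpha, fell 1.60-fold, and Os9 fell 1.21-fold. The coactivator and chaperone list had 3 higher and 6 lower of 12 (median -0.05), or 75% called. Cited2, a HIF target that competes with HIF for its coactivators, fell 1.54-fold from 84.8 to 55.2 CPM. Ep300 fell 1.34-fold while the related acetyltransferase Crebbp rose 1.29-fold. The chaperone gene Hsp90aa1 rose 1.23-fold from 143 to 177 CPM. Its more abundant paralog Hsp90ab1, named after its values were seen, fell 1.13-fold from 5038 to 4447 CPM. Among 17 genes that act upstream of Hif1a RNA or its translation, 6 were higher and 5 lower (median 0.04), or 64.7% called, and nothing is read from these counts beside the 61.9% of all genes. Stat3, which carries IL-6 and IL-23 signals, fell 1.54-fold, Eif4ebp1, a brake on translation, fell 2.08-fold and Ikbkg, a subunit of the IKK complex, fell 1.29-fold. Rheb, an activator of mTORC1, rose 1.46-fold. All these calls are from the edgeR test over all genes.

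Genes whose profile over the 6 libraries was closest to that of Hif1a were found by the root mean square difference of log2 CPM after centring each gene, among 8457 genes with a mean of at least 10 CPM. They were Lsp1 (0.055), Manba (0.060) and Zbtb4 (0.060). Nearest to Egln3 were Zfp281 (0.025), Tecpr1 (0.034) and Syngr1 (0.035). Hif1a and Egln3 differed by 0.099, which placed Egln3 at rank 57 among the genes nearest to Hif1a. With 6 libraries in 2 groups, any gene with a similar fold between the groups lies near by this measure.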

How the data were processed

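RNA-seq libraries of 3 DMSO and 3 CX-4945 cultures were analysed from a table the authors deposited. Per the labels' protocols, RNA was extracted with Trizol and sequenced by Genewiz. The submitters' processing notes name the genome build mm10. The aligner, annotation release and strand setting are not stated there. The exon read counts are whole reads per gene that map to a single gene, not normalized, per the file headers. Mean RPKM values per group are the authors', and the sources do not state which reads they rest on. The authors' deposited table also holds their own log2 differences and corrected p-values, which are quoted only as theirs. A further 96 per-library value columns were not used: column names give the group but not the sample, so a single measure per library was kept. A planned test on intron reads and alternatives on total reads are therefore not reported.

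Genes were filtered with filterByExpr (minimum count 10, minimum total 15), scaled by TMM (factors 0.971 to 1.02) and tested with edgeR 4.0.16 in R 4.3.3, Benjamini-Hochberg adjusted over all genes tested. A standard error is the log2 fold change over the square root of F. CPM values are after TMM. Depth was 22178614 to 26148189 unique exon reads, at which 3 reads equal 0.112 to 0.133 CPM, a floor that covers counting error only. Libraries of a group differed beyond sampling noise, with a chi-square per degree of freedom of 3.74 to 26.1. The common biological coefficient of variation estimated by edgeR was 8.55%. The procedure was run on simulated counts in which far fewer genes changed than were called here, so its call rate under these data was not checked. Gene coordinates are those of the table, with 1 added to starts that count from 0.

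The members, gene lists and tests were chosen with earlier results of these data known. The text names all 8 members, up to 4 genes past the threshold per list by smallest adjusted p, Stat3 and Cited2, and the 3 genes closest to Hif1a and to Egln3, leaving out predicted models and pseudogenes. Adm, Tfrc, Nt5e, Plod1, Narf, Hsp90ab1, the genes that stand in 2 lists, and single cell type markers fall outside that rule. They were named after their values were seen. Hdac4 and Tmlhe were not matched to a row and are not analysed here, and Npas3, Sim1, Sim2, Cited1, P4ha3 and Bbox1 had too few reads to test. Alternatives were other scalings (RLE, upper quartile, library size), DESeq2 1.42.0, other filters, minimum folds, and leaving out each library. The minimum fold of 1.5 was added after seeing the data.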

Additional observations from a re-analysis of the deposited data

How the results depend on the processing

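The falls of Hif1a, Vhl, Egln1 and Egln3 by exon reads kept their direction and call under all 14 alternatives run for each. With each library left out in turn the log2 values ran from -0.90 to -0.78 for Hif1a, -1.16 to -0.93 for Vhl, -0.82 to -0.74 for Egln1 and -0.89 to -0.76 for Egln3. Over the left-out libraries Epas1 ran from -1.03 to -0.20 and Egln2 from -0.15 to -0.11, and each passed in 1 of those fits, Epas1 without CX-4945 library 6 and Egln2 without DMSO library 3. No value of a member changed sign in any alternative. Scaling by library size alone moved the median of all genes to 0.06 and gave 4439 genes higher and 3415 lower, against 3831 and 3910. The causes were not tested. In the HIF target list 1 to 2 genes were higher over the left-out libraries, and among other dioxygenases 2 were higher without DMSO library 1 or CX-4945 library 2, against 6. The planned test by intron reads and the alternatives by total exon reads are not reported, since only 1 measure per library was kept. No paired analysis was possible because the columns carry no replicate numbers from the labels. Depth limits Epas1 most, at 32 to 101 reads per library, and RNA counts give no protein level or hydroxylase activity.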
